A study of Homo sapiens with 6 samples.

Results

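The endothelin system comprises the genes of 3 peptide ligands (EDN1, EDN2 and EDN3), 2 receptors (EDNRA and EDNRB) and 2 converting enzymes (ECE1 and ECE2). These 7 genes, of 63677 in the count tables, were followed in SW480, an established cell line from a human colon adenocarcinoma. The members were found by their Ensembl identifiers, and each had a row in every table. EDN3 was chosen by its measured values, namely the difference between the groups described here, in which it stood among the genes of smallest adjusted p-value in earlier results of the same tables. Its own difference is therefore given as a description without a test, and the other 6 genes were added by their known place in the pathway.

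SW480 cells had been transduced with a lentiviral vector that encoded either green fluorescent protein (GFP) or POU5F1B under a doxycycline-inducible promoter. POU5F1B is a retrogene copy of POU5F1, the gene of the pluripotency factor OCT4, and the vector form carried an HA tag. Both groups, the GFP controls included, were exposed to doxycycline at 1 µg/mL during the 72 h that preceded harvest. Polyadenylated RNA was sequenced from 3 GFP and 3 POU5F1B libraries. The cells were selected as transduced populations of 1 line, and the labels do not say whether replicates were separate cultures, so p-values measure only the spread between these libraries, which may be technical.

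Endothelins are short peptides cut from longer precursors. Furin-type proteases first release an inactive intermediate, big endothelin, and the membrane metalloproteases ECE1 and ECE2 cleave it into the active peptide. The peptides act on neighbouring cells through the G protein-coupled receptors EDNRA, which prefers endothelin 1 and 2 over endothelin 3, and EDNRB, which binds all of them. In the gut the pair EDN3 and EDNRB is best known from development, where it is needed for neural crest cells to populate the distal bowel as enteric neurons; the same pair acts in melanocyte precursors.

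The ligand transcripts are related in sequence, and reads are assigned by such differences. The stretches that code for the mature peptides are shown because they hold the conserved core of the family and bear on whether reads could be shared between the ligands. Each stretch spans 63 bases or 21 codons, lies in exon 2 of 5 of the Ensembl canonical transcript, and is printed in the sense of the gene from GENCODE transcripts on GRCh37 (hg19). Capitals mark the bases that differ from EDN3, so EDN3 has none. The EDN3 stretch lies at chr20:57876701-57876763 on the plus strand, that of EDN1 at chr6:12292666-12292728 on the plus strand and that of EDN2 at chr1:41949732-41949794 on the minus strand.
EDN3: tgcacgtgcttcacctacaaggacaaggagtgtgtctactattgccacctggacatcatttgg
EDN1: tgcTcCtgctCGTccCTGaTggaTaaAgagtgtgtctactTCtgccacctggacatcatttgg
EDN2: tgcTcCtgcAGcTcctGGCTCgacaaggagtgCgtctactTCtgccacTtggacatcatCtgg

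EDN1 differed from EDN3 at 13 of the 63 bases (79.4% identity) and EDN2 at 15 (76.2%), most of them in the first part of the peptide. Over the whole transcripts, of 2452 bases for EDN3, 2035 for EDN1 and 1253 for EDN2, the longest run of identical bases was 21 between EDN3 and EDN1, 11 between EDN3 and EDN2, and 15 between EDN1 and EDN2. The ligands are thus distinct genes on 3 chromosomes with no long shared stretch, and each was counted from uniquely mapped reads.

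Libraries held between 10767947 and 12787637 counts, with 20385 to 21455 genes detected in each. Values are given as CPM, counts relative to the library size after TMM scaling, which corrects for composition, and a floor of 3 counts amounted to 0.229 to 0.278 CPM. The overexpressed gene followed the labels: POU5F1B had 6, 5 and 1 counts in GFP replicates 1, 2 and 3 and 15027, 11393 and 1458 counts in POU5F1B replicates 1, 2 and 3. Replicate 3 stood apart in both groups. POU5F1B was 9.22 times lower in POU5F1B replicate 3 than in the mean of the other two, and the mitochondrial share of counts was 8.62% in GFP replicate 3 against 6.95% to 7.49% in the other libraries. For EDN1, EDN2, ECE1 and ECE2, fits with all 6 libraries and with replicates 1 and 2 only are given. For other genes named below, the fit of all 6 libraries or the values of each library are given.

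The epithelial label was matched by its markers, since KRT8, KRT18 and EPCAM were present in every library, although the colonocyte markers KRT20, at 0.786 to 1.45 CPM, and CDX1, under the floor, were low. The summed level of 9 epithelial markers was 6366 to 9580 CPM in GFP and 7909 to 8930 CPM in POU5F1B libraries, and the groups overlapped. Of these markers only CDH1, which encodes E-cadherin, kept the groups apart. Every POU5F1B library was likewise above every GFP library for 10.2% of the 14286 genes tested below. It was at 33.7, 30.2 and 72.7 CPM in GFP and 164, 159 and 98.3 CPM in POU5F1B replicates 1, 2 and 3. EPCAM was at 86.8, 89.4 and 519 CPM against 320, 331 and 252 CPM, with GFP replicate 3 the highest library. Of the markers of cells in which endothelins are classically studied, SOX10, PAX3 and TYR of melanocytes and neural crest cells were at 0 in all 6 libraries. The summed level of the 7 markers on that list was 2.35 to 6.32 CPM in GFP and 4.16 to 5.65 CPM in POU5F1B libraries. Over 6 endothelial markers the sum was 14.2 to 29.2 CPM in GFP and 8.43 to 13.8 CPM in POU5F1B libraries, mostly FLT1 and VWF, while CDH5, TEK, KDR and ERG were under the floor everywhere. Over 5 fibroblast markers it was 27.4 to 171 CPM against 13.4 to 22.6 CPM, with COL1A1 the largest in GFP and PDGFRB the largest in POU5F1B libraries, and DCN at or under the floor in every library. Over 4 leukocyte markers it was 0.381 to 1.60 CPM against 0 to 0.786 CPM. Endothelial and fibroblast sums were thus lower, and CDH1 higher, in POU5F1B libraries without overlap, the endothelial sum only narrowly. The sums followed FLT1 and COL1A1, while other markers overlapped. VWF was at 5.98, 5.18 and 1.13 CPM in GFP and 6.37, 4.82 and 2.50 CPM in POU5F1B replicates 1, 2 and 3. PDGFRB was at 28.2, 28.7 and 7.22 CPM against 8.73, 7.69 and 12.5 CPM. The part of these markers in the results below was not tested.

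Among the endothelin genes, EDN3 was about 4 times higher in POU5F1B cells, EDN2 was about 2 times higher without passing the test, and EDN1, ECE1 and ECE2 showed smaller differences. Both receptor transcripts were at or below the floor in every library. The plot of member levels shows each library.

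**Figure D1:**
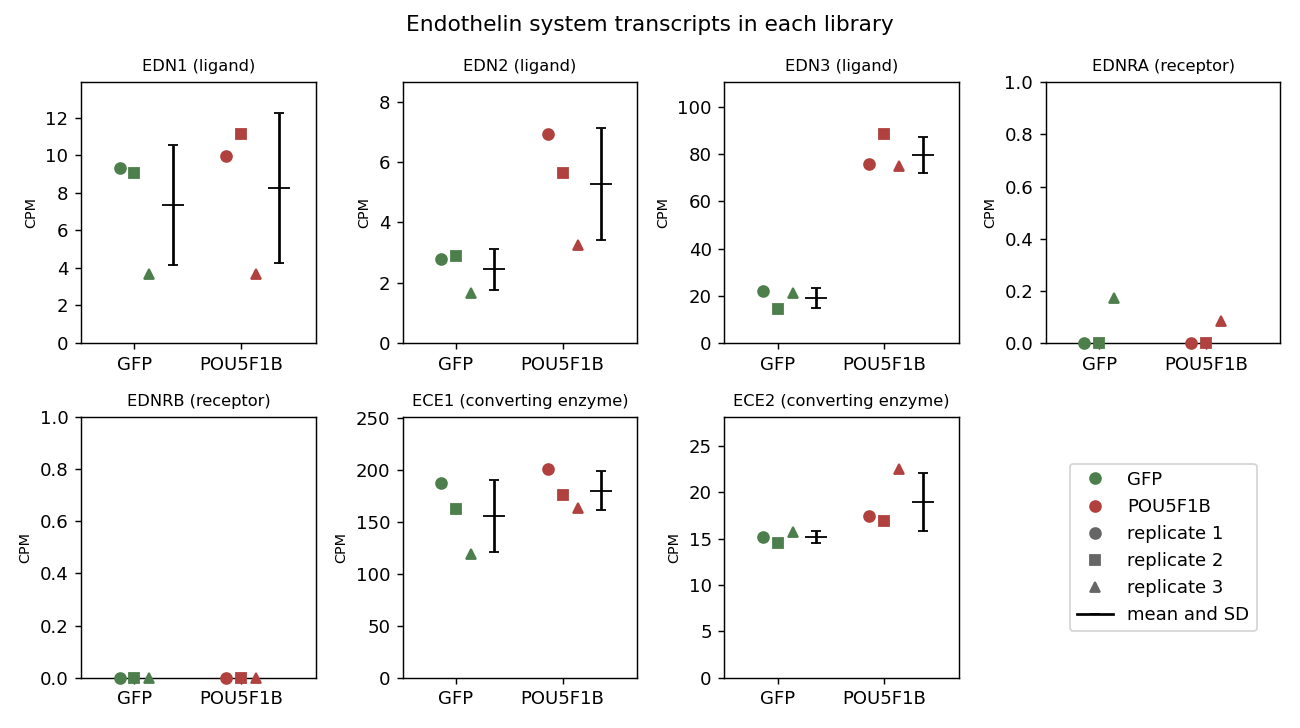
Levels of the 7 endothelin system genes in CPM (vertical axes, different scales) in 3 GFP (green) and 3 POU5F1B (red) libraries, with the replicate number as the marker shape and the mean and SD beside each tested gene. All EDN3 levels of POU5F1B libraries lie far above those of GFP libraries, EDN1 follows the replicate number in both groups, and EDNRA and EDNRB lie at or near 0.

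EDN3 (ENSG00000124205, chr20:57875498-57901047, plus strand) encodes the endothelin 3 precursor. Its counts were 260, 187 and 245 in GFP replicates 1, 2 and 3, and 964, 954 and 900 in POU5F1B replicates 1, 2 and 3. In CPM these were 21.9, 14.2 and 21.3 in GFP and 75.8, 88.4 and 74.9 in POU5F1B libraries. Every POU5F1B library was high and every GFP library low, and the lowest POU5F1B level was 3.42 times the highest GFP level.

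The mean EDN3 level was 19.2 ± 4.26 CPM with GFP and 79.7 ± 7.55 CPM with POU5F1B (SD, n = 3). Within groups the highest library was 1.54 times the lowest in GFP and 1.18 times in POU5F1B cells. The fitted log2 fold change was 2.08 ± 0.20 (SE, limma voom, 95% interval 1.62 to 2.55), a fold change of 4.24. Because EDN3 was chosen by this difference, the SE and interval describe the spread between these libraries and cannot serve as a test. Set side by side by replicate number, the log2 differences were 1.78, 2.62 and 1.81, so the difference was largest at number 2, where the GFP level was lowest and the POU5F1B level highest.

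The overexpressed gene varied far more than EDN3 within the POU5F1B group. POU5F1B stood at 1182, 1056 and 121 CPM in replicates 1, 2 and 3 of that group, whereas EDN3 in replicate 3 was 0.912 times the mean of replicates 1 and 2. EDN3 therefore did not scale with the POU5F1B level among these 3 libraries, which are too few for a correlation. In bulk RNA, a higher share of cells that express EDN3 and more EDN3 RNA in each cell cannot be told apart, and the same holds for every gene below.

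**Figure D2:**
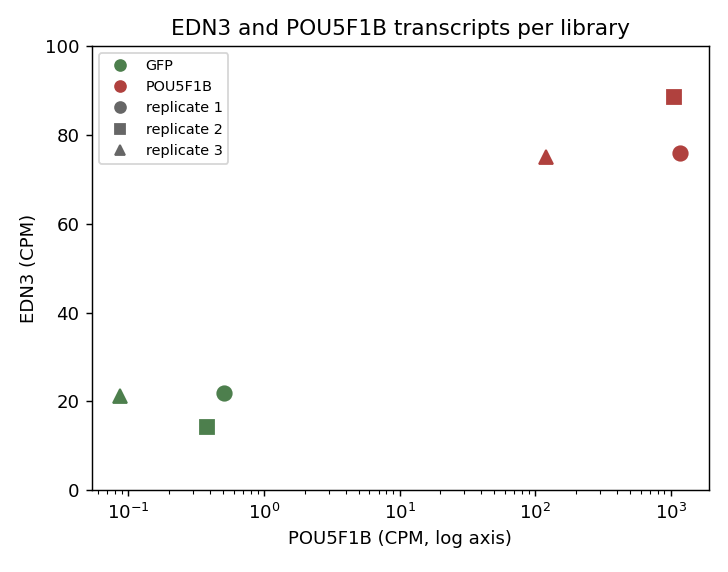
EDN3 level (vertical axis, CPM) against POU5F1B level (horizontal axis, CPM, log axis) for the 6 libraries, with group by colour and replicate number by marker shape. POU5F1B replicate 3 has a POU5F1B level of 121 CPM, far below the other POU5F1B libraries, and nearly the same EDN3 level.

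EDN2 (ENSG00000127129, chr1:41944446-41950354, minus strand) encodes the endothelin 2 precursor, the ligand described in intestinal epithelium. It had 33, 38 and 19 counts in GFP and 88, 61 and 39 counts in POU5F1B replicates 1, 2 and 3, or 2.78, 2.90 and 1.65 against 6.92, 5.65 and 3.25 CPM. POU5F1B libraries were all above GFP libraries, but narrowly, since POU5F1B replicate 3 was 1.12 times the highest GFP library. Means were 2.44 ± 0.686 and 5.27 ± 1.87 CPM (SD, n = 3), with a log2 fold change of 1.07 ± 0.39 (SE; 95% interval 0.13 to 2.0) and an adjusted p of 0.357 in limma voom over all tested genes.

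The EDN2 difference had the same sign at each replicate number, with log2 differences of 1.27, 0.93 and 0.91. Replicate 3 was the lowest library of both groups. In a fit of replicates 1 and 2 only, the log2 fold change of EDN2 was 1.13 ± 0.26 (SE) with an adjusted p of 0.0067 in limma voom. With all 6 libraries and sample quality weights it was 1.07 ± 0.26 (SE) with an adjusted p of 0.016 in limma voom. The call thus changed with the fit, while the size of the difference hardly moved between these 3 fits.

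EDN1 (ENSG00000078401, chr6:12290594-12297427, plus strand) encodes the precursor of endothelin 1, the vasoconstrictor of endothelial cells. It had 111, 119 and 42 counts in GFP and 127, 120 and 44 counts in POU5F1B replicates 1, 2 and 3, or 9.35, 9.07 and 3.65 against 9.99, 11.1 and 3.66 CPM. The groups overlapped, and the low library was replicate 3 on both sides. The mean of replicates 1 and 2 was 2.52 times replicate 3 in GFP and 2.88 times in POU5F1B cells.

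Group means of EDN1 were 7.36 ± 3.21 and 8.26 ± 4.02 CPM (SD, n = 3). The log2 fold change was 0.11 ± 0.54 (SE; 95% interval -1.18 to 1.41), with an adjusted p of 0.956 in limma voom. In this fit the interval is wide enough to hold a change of over 2-fold in either direction. Much of that width came from replicate 3, which was low in both groups. A model that also took account of replicate numbers put EDN1 at 0.15 ± 0.21 (log2, SE; adjusted p of 0.795 in limma voom). Replicates 1 and 2 alone gave 0.18 ± 0.18 (SE; adjusted p of 0.501 in limma voom). How large an EDN1 difference could be missed thus depends on the fit.

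To compare the ligands with each other, levels were divided by exon length (RPKM, the CPM per kilobase of exon, from the union of GENCODE exons). In GFP replicates 1, 2 and 3 EDN3 stood at 6.65, 4.33 and 6.48 RPKM, EDN1 at 4.60, 4.46 and 1.80 RPKM, and EDN2 at 1.69, 1.76 and 1.00 RPKM. In POU5F1B replicates EDN3 stood at 23.0, 26.9 and 22.8 RPKM, EDN1 at 4.91, 5.47 and 1.80 RPKM, and EDN2 at 4.20, 3.43 and 1.97 RPKM. EDN3 was the most abundant ligand per length in 5 of the 6 libraries; in GFP replicate 2 it lay level with EDN1, at a ratio of 0.971.

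EDN3 made up 51.4%, 41.1% and 69.8% of the ligand RPKM in GFP replicates 1, 2 and 3, and 71.7%, 75.1% and 85.8% in POU5F1B replicates. The summed ligand level went from 9.27 to 12.9 RPKM in GFP libraries to between 26.5 and 35.8 RPKM in POU5F1B libraries, and most of that difference was EDN3. Without EDN3, the sum of EDN1 and EDN2 was 6.28, 6.21 and 2.80 RPKM in GFP and 9.10, 8.89 and 3.77 RPKM in POU5F1B replicates, so the groups overlapped.

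**Figure D3:**
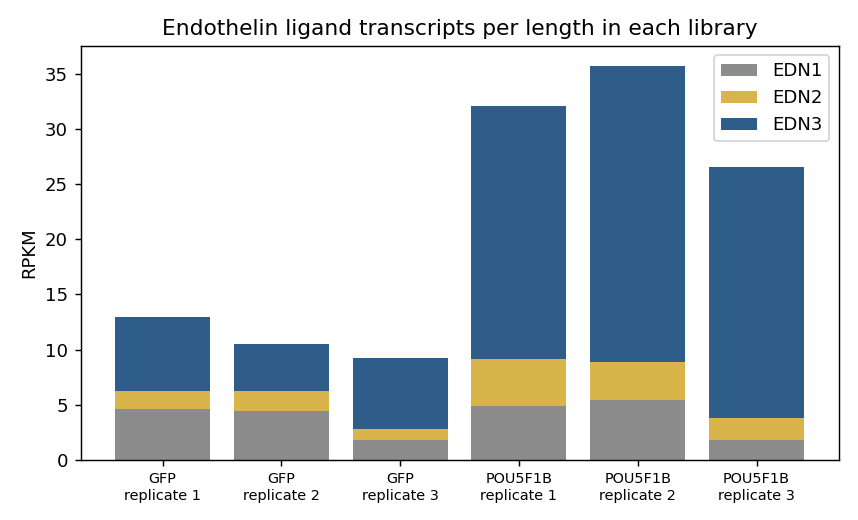
Stacked bars of EDN1 (grey), EDN2 (yellow) and EDN3 (blue) in RPKM (vertical axis, from 0) for each of the 6 libraries. EDN3 is the part of the bar that separates POU5F1B from GFP libraries, and EDN1 is small in replicate 3 of both groups.

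The ratio of EDN2 to EDN1, which does not use EDN3, was 0.367, 0.394 and 0.558 in GFP and 0.855, 0.627 and 1.09 in POU5F1B replicates 1, 2 and 3. POU5F1B libraries were all above GFP libraries, by 1.94-fold on average over logs. The exact two-sided permutation test over the libraries gave p = 0.1, the smallest value that 3 against 3 libraries allow, so this ratio could not pass a threshold of 0.05 in this design.

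The receptors were barely seen. EDNRA (ENSG00000151617, chr4:148402069-148466106, plus strand) had 0, 0 and 2 counts in GFP and 0, 0 and 1 counts in POU5F1B replicates. EDNRB (ENSG00000136160, chr13:78469616-78549664, minus strand), the receptor paired with EDN3 in development, had 0 counts in all 6 libraries. A count of 0 allows up to 3 counts, or 0.229 to 0.278 CPM, and this floor covers counting error only. Neither receptor entered the test, and no direction can be given for them at this depth.

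Transcripts of both converting enzymes were present. ECE1 (ENSG00000117298, chr1:21543740-21672065, minus strand) had 2223, 2134 and 1366 counts in GFP and 2556, 1896 and 1969 counts in POU5F1B replicates 1, 2 and 3, or 187, 163 and 119 against 201, 176 and 164 CPM. The groups overlapped, with GFP replicate 3 the lowest library. Means were 156 ± 34.7 and 180 ± 18.9 CPM (SD, n = 3), and the log2 fold change was 0.23 ± 0.19 (SE; 95% interval -0.22 to 0.67) with an adjusted p of 0.665 in limma voom. The antisense gene ECE1-AS1, which overlaps it, had at most 4 counts in a library. As the strand setting of the counts is not given, these counts do not settle how many antisense reads fell to ECE1.

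ECE2 (ENSG00000145194, chr3:183993799-184010819, plus strand) encodes a relative of ECE1 that is known from neural tissue and works at acidic pH. It had 180, 190 and 181 counts in GFP and 222, 182 and 270 counts in POU5F1B replicates 1, 2 and 3, or 15.2, 14.5 and 15.7 against 17.5, 16.9 and 22.5 CPM. All POU5F1B libraries were higher, the lowest by 1.07 times the highest GFP library, and replicate 3 was the highest of its group. Means were 15.1 ± 0.638 and 18.9 ± 3.08 CPM (SD, n = 3), and the log2 fold change was 0.31 ± 0.18 (SE; 95% interval -0.11 to 0.74) with an adjusted p of 0.531 in limma voom.

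The ECE2 counts carry an uncertainty of annotation. A readthrough gene, EEF1AKMT4-ECE2 (chr3:183967483-184010819), shares the ECE2 locus in the annotation used here and has 0 rows in the count tables, so transcripts that start at the neighbouring EEF1AKMT4 cannot be told apart from ECE2. Per length, ECE1 was 4.88 to 7.99 times ECE2 in GFP and 4.72 to 7.45 times in POU5F1B libraries, with the lowest ratio in replicate 3 of both groups.

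Ordered by mean RPKM over the 6 libraries, the genes ran ECE1 (23.0), EDN3 (15.0), EDN1 (3.84), ECE2 (3.60), EDN2 (2.34), EDNRA (0.010) and EDNRB (0). Of the 14021 tested genes with a length, 85.9% lay below ECE1, 78.2% below EDN3, 44.02% below EDN1, 42.7% below ECE2 and 32.9% below EDN2. In POU5F1B replicates 2 and 3 EDN3 exceeded ECE1 in RPKM, at 26.9 against 24.0 and 22.8 against 22.4, so these neighbours in the order did not differ beyond their spread in POU5F1B cells, nor did EDN1 and ECE2, whose ranges overlapped in each group. In GFP cells ECE1 exceeded EDN3 in every library, and every EDN2 level lay below every EDN1 and ECE2 level; in POU5F1B cells the ranges of EDN2 overlapped those of EDN1 and ECE2.

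Of the 7 genes, 5 passed the filter on low counts and entered the fit of 14286 genes. At an adjusted p under 0.05 and a fold change above 2, 0 of the 4 tested members other than EDN3 passed in limma voom. In that fit 0% of all tested genes passed, and 1698 genes had an unadjusted p under 0.05. The edgeR quasi-likelihood test called 0 genes and DESeq2 called 232. POU5F1B itself, with a log2 fold change of 10.7, had an adjusted p of 0.252 in limma voom. Falling short of the threshold therefore does not show a gene to be unchanged. EDN2 was the only one of the 4 members with an unadjusted p under 0.05 (0.031 in limma voom). Every POU5F1B library exceeded every GFP library for EDN2 and ECE2 among these 4, as for 10.2% of all tested genes, and for none of the 4 was every POU5F1B library lower, against 9.24% of all tested genes.

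In the fit of replicates 1 and 2 only, 1 of the same 4 members (EDN2) was past the threshold, as higher, where 3.21% of tested genes were past it as higher and 5.15% as lower. In that fit EDN1, ECE1 and ECE2 had log2 fold changes of 0.18, 0.10 and 0.20 with adjusted p of 0.501, 0.484 and 0.359 in limma voom.

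**Figure D4:**
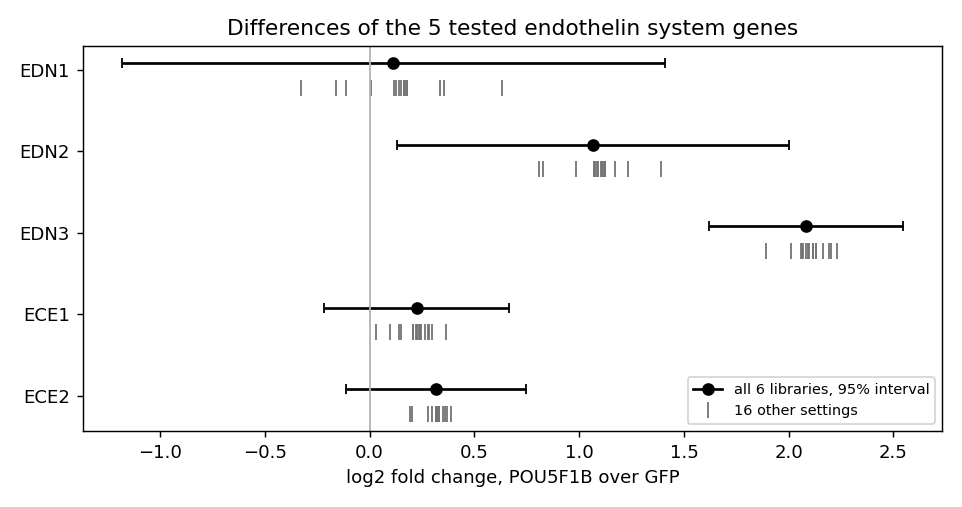
Log2 fold change of POU5F1B over GFP (horizontal axis) for the 5 tested endothelin genes, with points and bars for the fit of all 6 libraries and its 95% interval, and ticks for 16 other settings of the analysis. EDN3 and EDN2 stay above 0 at every tick, EDN1 has ticks on both sides of 0, and ECE1 and ECE2 have ticks between 0.033 and 0.39. EDN3 was chosen by this difference, so its interval is a description and no test.

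The difference at EDN3 was set beside its neighbours on chromosome 20, the 5 annotated protein-coding genes on each side, of which 7 were tested. GFP and POU5F1B libraries overlapped for all 10 of them. CTSZ, ATP5F1E, PRELID3B, PHACTR3 and FAM217B had log2 fold changes between -0.19 and 0.05. PPP1R3D, 640 kb from the EDN3 start, had a log2 fold change of 0.57 ± 0.25 (SE) and an adjusted p of 0.428 in limma voom.

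The nearest gene, ZNF831, starts 177 kb before EDN3. It had 2, 1 and 68 counts in GFP and 28, 48 and 41 counts in POU5F1B replicates 1, 2 and 3, so it was low in 2 GFP libraries and highest in GFP replicate 3. Its log2 fold change was 2.68 ± 1.21 (SE) with an adjusted p of 0.440 in limma voom. By replicate number its log2 differences were 2.82, 4.25 and -0.76, so it was higher with POU5F1B at numbers 1 and 2 only. EDN3 showed no such excursion in GFP replicate 3 and was higher at each number.

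**Figure D5:**
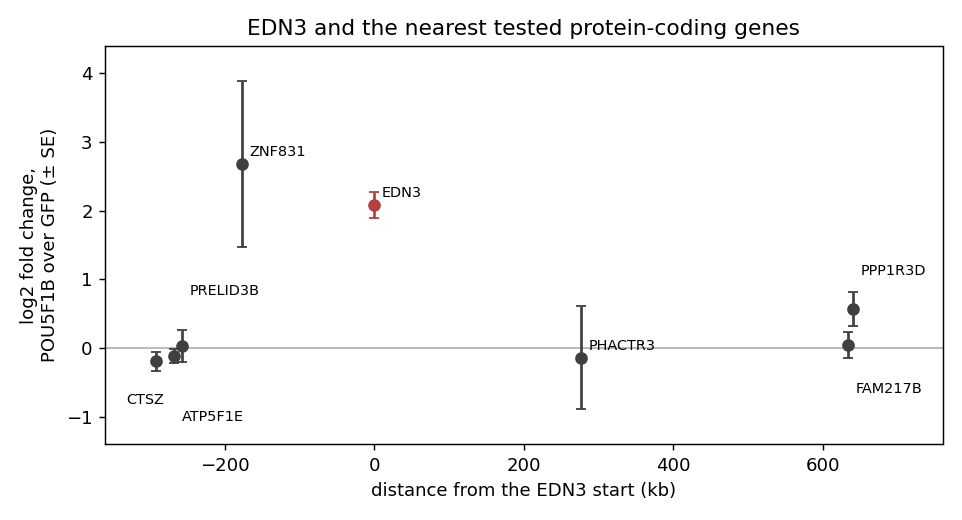
Log2 fold change of POU5F1B over GFP with its SE (vertical axis) for EDN3 (red) and the 7 tested genes among its 10 neighbours (grey), against the distance between gene starts in kb (horizontal axis). Only ZNF831, with a wide error bar and overlapping groups, lies at or above EDN3, and the other 6 lie between -0.19 and 0.57.

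The genes whose pattern over the 6 libraries was most like that of EDN3 were named by the Pearson correlation of log2 CPM, as a description. The 6 libraries fall into the 2 groups and have similar depth, so any gene with a clean group difference scores high, and 121 of 14285 genes had r above 0.95. The first 5 were CDC20 (r = 0.997), an activator of the anaphase-promoting complex, CSTF2 (0.991), a subunit of the mRNA cleavage machinery, TM4SF5 (0.990), a membrane protein of the tetraspanin-like family, DUSP5 (0.989), a phosphatase of ERK, and ADI1 (0.989), an enzyme of methionine salvage.

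Among those 5 only TM4SF5 differed as much as EDN3, with 6, 3 and 4 counts in GFP and 45, 39 and 51 counts in POU5F1B replicates and a log2 fold change of 3.32. The others had log2 fold changes of 0.26 to 0.67. Of the first 5, between 0 and 2 remained among the first 5 when a library was left out, so the order rests on single libraries; without GFP replicate 3, 0 remained. Within the endothelin system r with EDN3 was 0.753 for EDN2, 0.738 for ECE2, 0.433 for ECE1 and 0.078 for EDN1.

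Genes that process or clear the ligands, carry the receptor signal, work beside EDN3 and EDNRB in the neural crest, or belong to other vasoactive peptide systems were taken as 4 lists of 87 genes in all. Of these, 50 were tested, 0 were past the threshold in either direction in limma voom or edgeR and 4 in DESeq2, which called 1.62% of all tested genes. In limma voom 4 had an unadjusted p under 0.05 as higher and 4 as lower, beside 867 and 831 of all 14286 tested genes, and 23 had a log2 fold change above 0, beside 6706 of all. Groups were apart upwards for 7 of the 50 and downwards for 8, beside the 10.2% and 9.24% of all tested genes given above. Their median log2 fold change was -0.08, beside -0.02 over all tested genes. From each list, the 2 genes with the largest change among those whose groups did not overlap are named below. That their groups were apart was thus fixed by this choice.

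Of 11 processing and clearance genes, 6 were tested, with a median log2 fold change of 0.15. Groups were apart upwards for 1 and downwards for 1 of the 6, where 10.2% and 9.24% of all tested genes were. FURIN, which makes big endothelin, had 111, 104 and 52.6 CPM in GFP and 125, 101 and 90.7 CPM in POU5F1B replicates. The transcript of this enzyme was thus present in every library, while its protein was not measured here. PCSK7, another protease of the furin family, was lower in every POU5F1B library (log2 fold change -0.31, adjusted p = 0.461 in limma voom). CTSA, a lysosomal protease that inactivates endothelin 1, was higher in every POU5F1B library (0.21, adjusted p = 0.546 in limma voom).

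Of 34 receptor-coupled G proteins and effectors, 31 were tested, with a median log2 fold change of -0.10, and groups were apart upwards for 4 and downwards for 4 of the 31, where 10.2% and 9.24% of all tested genes were. PRKCA, a protein kinase C downstream of Gq, had 1836, 1936 and 1598 counts in GFP and 807, 625 and 1402 counts in POU5F1B replicates (log2 fold change -0.96 ± 0.25, SE, adjusted p = 0.261 in limma voom). Its lower level lay mostly in POU5F1B replicates 1 and 2. RGS5, a regulator that shortens G protein signals, had 37, 44 and 15 counts against 9, 4 and 6 (log2 fold change -2.14 ± 0.52, SE, adjusted p = 0.236 in limma voom).

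Of 15 partners from the neural crest, 5 were tested; SOX10, PAX3, ZEB2 and GDNF had 0 counts in all libraries. The median log2 fold change of the 5 was -1.90, the value of NRG1. Groups were apart upwards for 1 and downwards for 1 of the 5, where 10.2% and 9.24% of all tested genes were. NRG1 had 35, 41 and 6 counts in GFP and 3, 4 and 11 counts in POU5F1B replicates 1, 2 and 3, so its groups overlapped. The median of so few genes therefore does not describe the list as a set. MITF, the master regulator of melanocytes, had 1441, 1485 and 239 counts in GFP and 27, 32 and 41 counts in POU5F1B replicates (log2 fold change -4.57 ± 1.11, SE, adjusted p = 0.236 in limma voom). MITF was thus lower in every POU5F1B library, and GFP replicate 3 lay between the other GFP libraries and the POU5F1B group.

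L1CAM, an adhesion molecule of enteric neural crest migration, had 1185, 1269 and 1103 counts in GFP and 2332, 1528 and 1537 counts in POU5F1B replicates (log2 fold change 0.62 ± 0.15, SE, adjusted p = 0.240 in limma voom). KITLG, the ligand of the melanocyte receptor KIT, was named after its values were seen: it had 52, 41 and 1065 counts in GFP and 10, 12 and 88 counts in POU5F1B replicates. Replicate 3 was high for KITLG in both groups.

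Of 27 genes of other vasoactive systems, 8 were tested, with a median log2 fold change of 0.12. Groups were apart upwards for 1 and downwards for 2 of the 8, where 10.2% and 9.24% of all tested genes were. ACE, the protease that makes angiotensin II, had 38, 42 and 37 counts in GFP and 98, 80 and 75 counts in POU5F1B replicates (log2 fold change 1.14 ± 0.21, SE, adjusted p = 0.195 in limma voom). NPPB, a natriuretic peptide that opposes endothelin in vessels, had 55, 30 and 62 counts against 10, 8 and 13 (log2 fold change -2.10 ± 0.46, SE, adjusted p = 0.209 in limma voom). Both genes were named because their groups did not overlap, so their separation in every library is no result of its own. In the fit of replicates 1 and 2 only, 7 of the 50 tested genes were past the threshold, ACE as higher and 6 as lower, beside 3.21% of all tested genes as higher and 5.15% as lower.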

How the data were processed

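The authors deposited a table of whole-number read counts per gene for each library, without normalization. Per the labels and methods, reads of a stranded mRNA kit were aligned to hg19 with HISAT2 and uniquely mapped reads were counted with featureCounts over genes and transposable elements. The strand setting and annotation release are not given in the sources used here. Groups and replicate numbers came from the titles.

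The filterByExpr step of edgeR 4.0.16 kept 14286 of 63677 genes. These were scaled by TMM and fitted with voom of limma 3.58.1 in R 4.3.3. The study names TMM and voom too, but no such filter. P-values were adjusted by Benjamini-Hochberg across the tested genes, and the threshold was an adjusted p under 0.05 with a fold above 2. The study counted SW480 among the settings with enough upregulated genes for a search of annotation terms. In the fit used here 0 genes passed with all 6 libraries. The overexpressed POU5F1B did not pass either, at a log2 fold change of 10.7 ± 2.78 (SE) and an adjusted p of 0.252 in limma voom. The reason for the difference from the study was not tested. Correlations used log2 CPM with a prior count of 2. Symbols were known for 87.4% of identifiers. Coordinates, lengths and transcripts came from GENCODE on GRCh37. Alternatives were edgeR quasi-likelihood, DESeq2 1.42.0, quality weights, other scalings and filters, a replicate block, leaving out each library, and replicates 1 and 2 only.

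The members, gene lists and alternatives were chosen with earlier results of these data known. The named genes are the 7 members, POU5F1B, the 5 genes most correlated with EDN3 and the 5 protein-coding genes on each side of EDN3. In each list the 2 genes with the largest change among those whose groups did not overlap were named. Marker genes, FURIN, KITLG, NRG1, list genes at 0 counts and genes that overlap members were named in addition.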

Additional observations from a re-analysis of the deposited data

How the results depend on the processing

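The EDN3 difference kept its direction in all 16 alternative settings, with a log2 fold change of 1.89 to 2.23, and 1.89 to 2.19 when 1 library was left out. ECE1 (0.033 to 0.37) and ECE2 (0.19 to 0.39) kept their direction and stayed outside the threshold in every setting. EDN2 ranged from 0.81 to 1.39 and passed the threshold in 2 settings, with adjusted p in limma voom of 0.016 under quality weights and 0.0067 with replicates 1 and 2 only, the range over settings being 0.0067 to 0.938. EDN1 ranged from -0.33 to 0.63 when 1 library was left out (0.63 without POU5F1B replicate 3), and changed sign in 3 settings, to -0.33 without GFP replicate 3, -0.11 without POU5F1B replicate 1 and -0.16 without POU5F1B replicate 2.

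Of the members, EDN3 included, 0 were past the threshold with all libraries. EDN3 was chosen by this difference, so its part in these numbers is a description and no test; among the other members only EDN2 passed, in the 2 settings named above. The number was 1 (EDN3) with DESeq2, 1 (EDN3) with a filter of at least 1 count in total, 2 (EDN2 and EDN3) with quality weights and 2 with replicates 1 and 2 only, and 0 to 1 when 1 library was left out, the 1 (EDN3) without GFP replicate 3. These settings called 232, 4, 1077, 1194 and 595 genes in all. Of the 50 tested list genes, where 0 were past the threshold, 4 passed with DESeq2, 6 with quality weights, 7 with replicates 1 and 2 only, and 0 to 6 when 1 library was left out, the 6 without GFP replicate 3. Of the 5 genes most like EDN3, 0 to 2 remained when 1 library was left out and 5 remained with a prior count of 0.5. The causes of these shifts were not tested.

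Over all tested genes, deviations of libraries that share a replicate number correlated at 0.242, 0.088 and 0.165 for numbers 1, 2 and 3. The numbers were therefore not taken as pairs in the main fit. With the replicate block, the log2 fold change of EDN3 was 2.07. There 0 members and 0 list genes were past the threshold, and 1 gene in all was called. The block lowered the SE from 0.54 to 0.21 for EDN1, from 0.39 to 0.26 for EDN2 and from 0.19 to 0.13 for ECE1. For EDN3 the SE went from 0.20 to 0.23, and for ECE2 it was 0.18 with and without the block. Depth limits the receptors, which at 0 to 2 counts give no direction, and EDN2, with as few as 19 counts in a library.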
